A study of Mus musculus with 12 samples.

Results

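The comparison described here sets B16-F10 cells that made FoxD3-VP16 against B16-F10 cells that carried the empty vector. Its arrays were chosen by their titles, 4 for FoxD3-VP16 and 4 for the empty vector, and they are 8 of the 12 arrays of the series. The other 4 arrays are of cells that made FoxD3, and they are used for the estimate of the spread and are set beside the response to FoxD3-VP16. Each array was matched with the array of the same replicate number, 1 to 4.

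B16-F10 is an established, pigmented mouse melanoma line. Per the labels, cells received the plasmid pMES, in which the chick beta-actin promoter drives the insert and an internal ribosome entry site adds EGFP from the same transcript. The controls carried pMES with no insert, so they made EGFP too. The FoxD3 plasmid held the chicken gene, and in FoxD3-VP16 the C-terminal part with the repression domain gave way to the activation domain of VP16, a herpesvirus protein. Cells positive for EGFP were sorted 24 h after transfection and their RNA was hybridized to 1-colour arrays. All groups therefore share the transfection, the promoter and the sort, and the expression is transient and driven by a strong promoter. Whether each replicate was a culture of its own is not stated, and the p-values cover no more than the spread among these arrays, part of which may be technical.

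FoxD3 is a forkhead transcription factor, a family that binds DNA through a winged helix domain at sequences with a TGTTT core. In the embryo it marks early neural crest cells, from which melanocytes and glia arise, and in several settings it acts as a repressor through its C-terminal part. A VP16 fusion keeps the DNA-binding domain and recruits the transcription machinery instead, and such fusions are commonly used to ask which genes lie under a repressor.

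The 7 melanocyte markers Tyr, Tyrp1, Dct, Pmel, Mlana, Mitf and Sox10 were all above the lower limit of tested genes, with means over the 12 arrays from 12.7 to 15.4. Levels are given throughout as log2(intensity + 16) after quantile normalization. None of 10 keratinocyte markers was above the limit of 5.98, against 6 of 13 fibroblast, 2 of 10 endothelial and 4 of 13 leukocyte markers. The summed intensity of the 13 fibroblast markers was 1001 to 1345 in the empty-vector arrays and 1481 to 1964 in the FoxD3-VP16 arrays, and Pdgfrb was the 1 called member. The part of other cells in the results was not tested, and in RNA from a pool of cells fewer cells of a type and less RNA per cell cannot be told apart. The probe set of mouse Foxd3 lay at 4.70 in empty-vector and 4.61 in FoxD3-VP16 arrays, below the limit, and since the insert is chicken sequence it checks no label. Both arrays numbered 1 stood apart in hybridization controls (14.99 and 15.03, against 12.09 to 13.26 on the 6 others) and in 18S ribosomal RNA (12.83 and 12.86 against 9.67 to 10.03). They also had higher array medians before normalization (6.75 and 6.94 against 6.18 to 6.28). The difference between their 3' and 5' Gapdh probe sets, a measure of RNA quality, was larger too (0.66 and 0.77 against -0.25 to 0.04). Between the vectors no difference was found in these 4 measures (exact two-sided permutation p of 0.743 to 0.914, and 0.914 for each after adjustment over 4 tests). In this test 4 against 4 arrays allow 0.0286 at the lowest. It leaves out the pairing, and the arrays numbered 1 widen both groups, so a small difference could be missed. Flipping the signs of the same-number differences gave an exact p of 0.375 or more, where 4 pairs allow 0.125 at the lowest.

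Of 10916 tested genes, 626 were called higher with FoxD3-VP16 (5.73%) and 591 lower (5.41%), at a Benjamini-Hochberg adjusted p under 0.05 in limma with the replicate number as a block. In 600 of the 626 and 548 of the 591 all 4 same-number pairs had the same direction. Over all tested genes all 4 pairs were higher for 1556 (14.3%) and lower for 1652 (15.1%). The block uses the same numbers, so agreement of the pairs is largely built into the calls and is no separate support. Rises were larger than falls: 115 called genes rose by a log2 change of at least 1 and 32 fell by as much, and the median size of a called change was 0.61 for rises and 0.49 for falls. Over all tested genes the median change was -0.02. The 4 arrays of the groups lay fully apart for 357 genes that were higher (3.27%) and for 266 that were lower (2.44%).

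The number of calls depended on the pairing and on 2 of the 4 numbers. Without the block 57 genes were called higher (0.522%) and 8 lower (0.0733%), and all 65 were also called with it. Left without replicate 3, the fit called 191 higher and 78 lower, and left without replicate 4 it called 150 higher and 46 lower. The loss fell harder on the lower genes, since rises made up 51.4% of calls with all 4 numbers, 71.0% without replicate 3, 76.5% without replicate 4 and 87.7% without the block. A gene that was not called is therefore not shown to be unchanged. Arrays numbered 3 and 4 resembled each other, as given with the processing, so a fit without 1 of them still held the other.

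**Figure D1:**
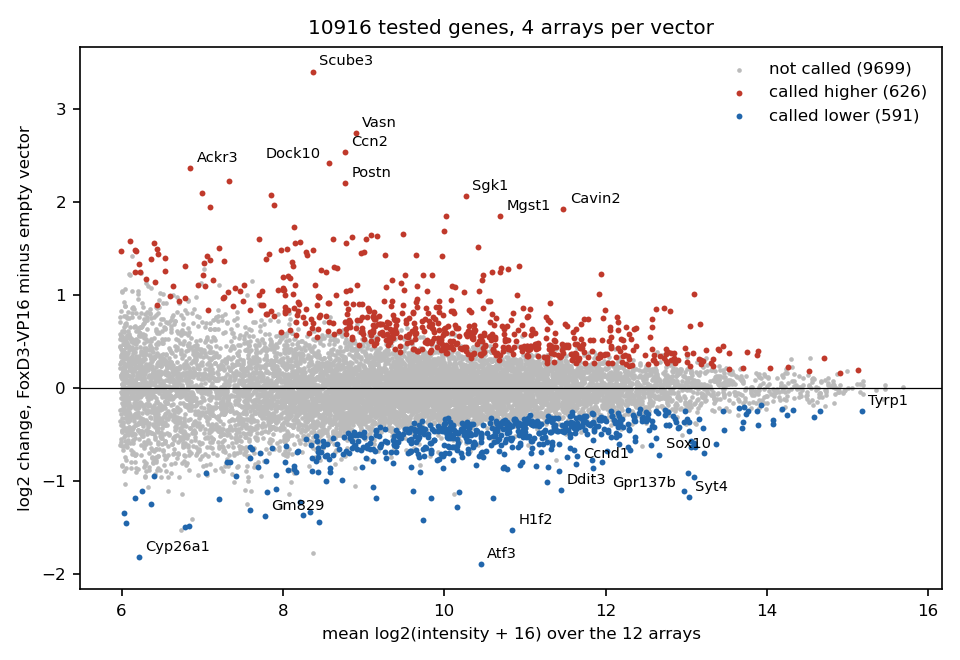
Each point is 1 of the 10916 tested genes, with its mean log2(intensity + 16) over the 12 arrays on the x axis and the log2 change, FoxD3-VP16 minus empty vector, on the y axis. The 626 genes called higher are red and the 591 called lower are blue; rises reach 3.40 (Scube3) and falls reach -1.90 (Atf3).

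The largest measured rise was that of Scube3, which encodes a secreted glycoprotein with CUB and EGF-like domains. Its levels on arrays 1 to 4 were 4.83, 6.84, 5.89 and 6.05 with the empty vector and 10.67, 8.60, 8.92 and 9.03 with FoxD3-VP16. Every FoxD3-VP16 array was above every empty-vector array, and the log2 change was 3.40 (SE 0.52, adjusted p = 0.00168). The empty-vector mean of 5.90 is below the limit of tested genes, where the added 16 makes a change look smaller than it is. Vasn encodes vasorin, a membrane protein that binds TGF-beta. It was at 8.15, 7.36, 6.68 and 7.24 with the empty vector and at 10.41, 9.48, 10.56 and 9.93 with FoxD3-VP16. The groups did not overlap, and the change was 2.74 (SE 0.24, adjusted p = 6.85e-05). Ccn2, a matricellular protein and a classical target of the Hippo pathway, stood at 8.16, 7.11, 8.07 and 7.93 with the empty vector. With FoxD3-VP16 it stood at 10.11, 9.60, 10.91 and 10.80, again with no overlap, a change of 2.54 (SE 0.20, adjusted p = 2.52e-05), or 5.82-fold. Postn encodes the matrix protein periostin and had levels of 8.18, 8.65, 7.58 and 8.03 without and 9.90, 10.50, 10.45 and 10.42 with FoxD3-VP16. The 4 FoxD3-VP16 arrays were above all controls, and the change was 2.21 (SE 0.21, adjusted p = 7.91e-05).

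Cavin2, a coat protein of caveolae, had a smaller SE than any of these. Its levels were 11.32, 11.33, 11.02 and 11.05 in the controls and 12.75, 13.05, 13.37 and 13.26 with FoxD3-VP16. The spread inside each group was small beside the gap, and the change was 1.93 (SE 0.14, adjusted p = 1.91e-05). Dock10 encodes a guanine nucleotide exchange factor of the Dock family. Its controls fell into a higher pair, numbers 1 and 2, and a lower pair, numbers 3 and 4, at 8.63, 8.71, 7.10 and 7.17. The FoxD3-VP16 arrays, at 10.48, 9.89, 10.59 and 10.36, were all above them, and the change was 2.43 (SE 0.30, adjusted p = 4.54e-04). Ackr3, a scavenging receptor for the chemokine Cxcl12, was at 7.35, 5.80, 5.77 and 5.56 and at 9.15, 8.48, 8.36 and 7.96. Its control numbered 1 was high, but still below every FoxD3-VP16 array, and the change was 2.37 (SE 0.25, adjusted p = 1.36e-04). Sesn1 encodes sestrin 1, a stress protein that restrains the growth kinase mTORC1. Its controls lay between 9.31 and 9.42 and its FoxD3-VP16 arrays at 10.52, 10.81, 10.87 and 10.93, a change of 1.43 (SE 0.11, adjusted p = 2.52e-05).

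The rest of the 15 largest rises with all 4 pairs in the same direction were of mixed kinds. Dusp14, a phosphatase of the dual specificity family, rose by 2.23. Cables1, a binding partner of cyclin-dependent kinases, rose by 2.10, and Kcnj13, an inward rectifying potassium channel, by 2.08. The empty-vector mean of Cables1, at 5.85, is below the limit of tested genes, so the size of its rise is understated. Sgk1, a kinase of the AGC family induced by serum and glucocorticoids, rose by 2.06. Il33, a nuclear cytokine, rose by 1.96, Cd1d1, which presents lipid antigens, by 1.95, Fstl1, a secreted protein related to follistatin, by 1.85, and Mgst1, a membrane glutathione transferase, by 1.85. For all of them the 4 FoxD3-VP16 arrays lay above the 4 controls. With each replicate number left out in turn, the calls of Scube3, Vasn, Ccn2, Postn, Cavin2, Dock10, Ackr3, Sesn1, Dusp14, Cables1, Kcnj13, Sgk1, Il33, Cd1d1, Fstl1 and Mgst1 held. Without the block Scube3, Vasn, Ccn2, Postn, Cavin2, Dock10, Ackr3, Sesn1, Dusp14, Cables1, Cd1d1 and Fstl1 kept the call and the adjusted p of the others lay between 0.0674 for Kcnj13 and 0.219 for Sgk1.

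**Figure D2:**
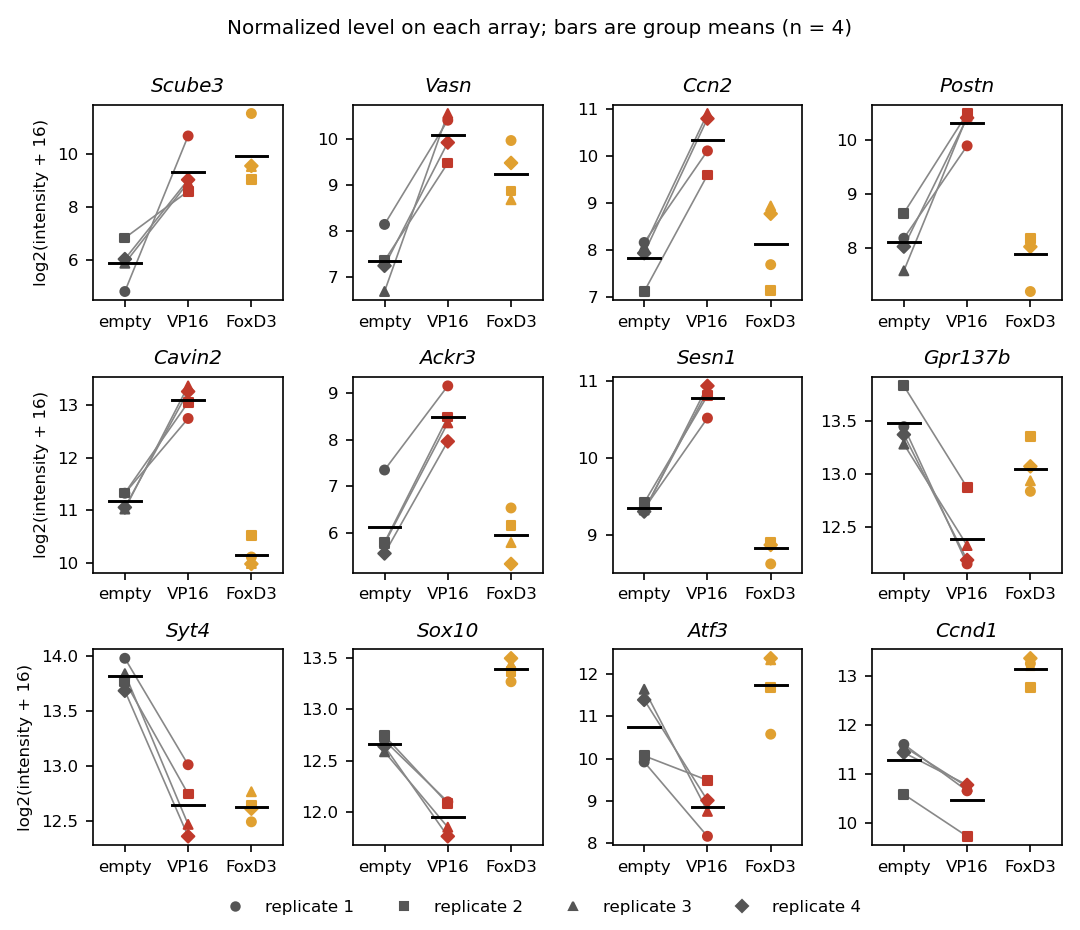
Normalized log2(intensity + 16) of 12 genes on each array, by vector on the x axis (empty vector grey, FoxD3-VP16 red, FoxD3 yellow); symbols give the replicate number, lines join same-number arrays of the compared groups and bars are means of 4 arrays. The 7 genes from Scube3 to Sesn1 are higher on all 4 FoxD3-VP16 arrays than on any control, Gpr137b, Syt4, Sox10 and Atf3 are lower, and Ccnd1 falls in every pair while the groups overlap.

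Forkhead cores were looked for in the 250 bases before each start of a gene, as RefSeq gives it on mouse build GRCm38.p6. There were 32851 such promoters for 27025 genes. A gene was counted once, with a match at any of its starts, so a gene with several starts had more chances of a match. The motifs searched, on both strands, were TGTTTAC, the variant of it written TGTTTGC and the longer TGTTTGTTT, and a match is only a description of letters. At least 1 of the 3 motifs was present for 68 of 528 genes called higher that had a promoter sequence (12.9%). The same held for 32 of 456 genes called lower (7.02%) and 675 of 8938 of all tested genes (7.55%). Among genes with a log2 change of at least 1 it was 17 of 93 for rises (18.3%) and 1 of 23 for falls (4.35%). The sets also differed in base composition, with a median GC content of 58.8% for genes called higher, 62.4% for genes called lower, 60.4% for all tested genes and 56.8% for the rises of at least 1. Over all 27025 genes with a promoter, whose median GC content was 52.4%, the share was 9.67%, and the part of base composition in these shares was not tested. Of the 15 largest rises 12 had a promoter sequence and 3 of these held a match; of the 15 largest falls 11 had one and 0 held a match. These 3 promoters are shown because they belong to the rises of largest size that hold a core, and capitals mark the match.
Il33, chr19:29924863-29925112, plus strand: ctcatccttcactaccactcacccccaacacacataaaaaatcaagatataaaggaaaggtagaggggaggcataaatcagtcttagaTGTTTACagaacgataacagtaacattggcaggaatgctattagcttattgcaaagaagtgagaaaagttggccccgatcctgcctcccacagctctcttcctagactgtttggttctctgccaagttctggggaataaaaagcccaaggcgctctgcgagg
Cavin2, chr1:51288876-51289125, plus strand: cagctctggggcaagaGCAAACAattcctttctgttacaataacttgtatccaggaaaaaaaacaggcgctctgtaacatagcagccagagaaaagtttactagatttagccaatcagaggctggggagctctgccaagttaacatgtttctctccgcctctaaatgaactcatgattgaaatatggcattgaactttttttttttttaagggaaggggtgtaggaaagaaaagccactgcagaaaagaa
Mgst1, chr6:138141337-138141586, plus strand: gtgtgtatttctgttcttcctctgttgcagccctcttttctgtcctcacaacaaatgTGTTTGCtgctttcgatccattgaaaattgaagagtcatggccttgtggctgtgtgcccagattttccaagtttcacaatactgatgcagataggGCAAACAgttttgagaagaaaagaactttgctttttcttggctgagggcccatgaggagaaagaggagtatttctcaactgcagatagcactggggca
The match of Il33 is TGTTTAC on the gene's strand, and its first base lies 162 bases before the start. Cavin2 holds TGTTTGC on the opposite strand, from 234 bases before the start. Mgst1 holds TGTTTGC in 2 places, on its own strand from 193 bases and on the opposite strand from 98 bases before the start.

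Genes were also described by lists of pathway members, given by how many tested members were called, beside 5.73% higher and 5.41% lower and a median of -0.02 over all tested genes. An unadjusted p under 0.05 was far more common, at 2926 of the 10916 tested genes with both directions together. List counts at an unadjusted p are to be read beside that number, and not beside the shares called. Called members beyond the 4 largest of a list were named after their values were seen. Matrix genes were among those that rose. Of 26 tested secreted matrix glycoproteins 8 were called higher and 1 lower, with a median change of 0.18. Next to Scube3 and Postn these were the laminin chain Lamb1 at 1.66 (SE 0.21, adjusted p = 4.54e-04), the crosslinking enzyme Tgm2 at 1.08 (SE 0.25, adjusted p = 0.018), the matricellular proteins Ccn4 and Sparc at 0.76 and 0.31, fibronectin (Fn1) at 0.61 and Emilin1, of elastic fibres, at 0.51. Lamb1 was at 8.59, 9.20, 8.70 and 9.19 in controls and at 9.68, 10.46, 11.22 and 10.95 with FoxD3-VP16, with no overlap. Nid1, which encodes the basement membrane linker nidogen, fell by 0.54. The count of members higher was 4 without replicate 3, 5 without replicate 4 and 3 without the block, and that of members lower was 0 in each. Of 16 tested collagen chains 1 was called, Col9a1, a chain of cartilage type, at 1.50 (SE 0.22, adjusted p = 0.00151), and the median was 0.21. Another probe set of Col9a1, with a mean of 6.65 against 8.05, changed by 0.51 (SE 0.34). The calls of Scube3, Postn, Lamb1, Ccn4 and Col9a1 held with any 1 number left out, while for the others the highest adjusted p without 1 number lay between 0.0705 for Sparc and 0.237 for Tgm2 (without replicate 2, 3 or 4). In the fit without the block Scube3, Postn and Lamb1 passed, and the others had an adjusted p between 0.144 for Col9a1 and 0.914 for Sparc.

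In the TGF-beta and BMP pathway 5 of 34 tested members were called higher and 1 lower, with a median change of 0.18. Both ligand genes Tgfb2 and Tgfb3 rose. Tgfb2 was at 8.90, 8.35, 8.55 and 8.79 in controls and at 9.92, 9.42, 9.87 and 9.82 with FoxD3-VP16, a change of 1.10 (SE 0.16, adjusted p = 0.00112). Tgfb3 was at 6.80, 7.71, 7.72 and 8.14 and at 8.81, 8.92, 9.16 and 9.33, a change of 1.46 (SE 0.17, adjusted p = 2.68e-04). The groups lay apart for both. Tgfb1 was lower by 0.38 but did not pass (adjusted p = 0.416). Among the other called members, Vasn binds the ligands, Smad3 (0.48) carries the signal to the nucleus, and Smad6 (1.21) inhibits it. Skil, which encodes the Smad corepressor SnoN, fell by 0.85. Without replicate 3, without replicate 4 and without the block 3 members were called higher and none lower, and those called without the block were Vasn, Tgfb2 and Tgfb3. Leaving out each number in turn kept the calls of Vasn, Tgfb2 and Tgfb3, while for the others the adjusted p without 1 number reached values between 0.0958 for Smad3 and 0.152 for Smad6 (without replicate 2, 3 or 4). Of them, Vasn, Tgfb2 and Tgfb3 passed without the block, where the adjusted p of the rest lay between 0.259 for Skil and 0.523 for Smad3.

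Wnt and planar polarity genes had 5 of 34 tested members higher and 1 lower, with a median change of 0.09. Prickle2, a planar polarity protein, was at 7.93, 8.39, 8.40 and 8.74 in controls and at 9.88, 9.52, 10.23 and 10.22 with FoxD3-VP16, with no overlap. Its change was 1.60 (SE 0.17, adjusted p = 1.36e-04). The receptors Fzd2 and Fzd7 rose by 1.20 and 0.92, and the nuclear effectors Lef1 and Tcf7l1 by 1.48 and 0.60. Dvl1, the adaptor below the receptors, fell by 0.37. The number called higher was 2 without replicate 3, without replicate 4 and without the block. With each replicate number left out in turn, the calls of Prickle2 and Fzd7 held, while for the others the highest adjusted p without 1 number lay between 0.131 for Fzd2 and 0.91 for Tcf7l1 (without replicate 2, 3 or 4). Without the block Prickle2 and Fzd7 kept the call and the adjusted p of the others lay between 0.216 for Fzd2 and 0.946 for Dvl1.

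Of 16 tested targets of the Hippo pathway 2 were called higher, Ccn2 and Tgfb2, and 1 lower, the coagulation initiator F3 at -0.99 (SE 0.15, adjusted p = 0.00165), with a median of 0.06. Ccn1, the closest relative of Ccn2 on the list, was at 8.93, 9.58, 9.18 and 9.0 in controls and at 9.06, 9.18, 9.80 and 9.64 with FoxD3-VP16. These groups overlapped, and the change of 0.25 did not pass (SE 0.17, adjusted p = 0.386). The probe set of Ccn1 is of the _x_at kind, which can bind RNA of other genes. Without such probe sets its change was 0.77 (adjusted p = 0.103), and with array quality weights it was 0.44 and passed (adjusted p = 0.0464). In the same way Cavin2 was the 1 called member of 6 tested caveolins and cavins. Cav1, which encodes the main caveolin, differed by 0.19 (SE 0.18, adjusted p = 0.542) with overlapping groups. The call of F3 held with each replicate number left out in turn, and its adjusted p without the block was 0.471.

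Genes of the cell surface changed in both directions. Of 14 tested integrin subunits Itgb5 was called higher, at 0.96 (SE 0.13, adjusted p = 6.79e-04), and Itga4 lower, at -1.18 (SE 0.17, adjusted p = 0.00116). Itga4 was at 9.12, 10.29, 9.88 and 9.62 in controls and at 8.62, 8.73, 8.32 and 8.52 with FoxD3-VP16, so the groups lay apart, and its call was lost when the probe sets of a gene were averaged (adjusted p = 0.128). The receptor tyrosine kinase list had 2 of 27 higher, Pdgfrb at 1.60 (SE 0.24, adjusted p = 0.00132) and the ligand Fgf1 at 1.05, and 3 lower, Vegfa at -0.81, Erbb3 and Met. Of 38 tested semaphorins, ephrins and receptors 2 were higher, Efna1 (1.18) and Epha3 (0.84), and 2 lower, Sema3b (-0.49) and Nrp2 (-0.39). These counts and the 1 higher of 16 Notch genes, Notch2 at 0.37, lie near the share of all genes called. The catenin gene Ctnnd1 was the 1 called of 8 tested cadherin and claudin genes, at 0.69. Chemokine genes had Ackr3 higher and Cxcl10, a ligand induced by interferon, lower by 0.91, of 9 tested. Leaving out each number in turn kept the calls of Itgb5, Itga4, Pdgfrb and Ackr3, while for the others the adjusted p without 1 number reached values between 0.0664 for Epha3 and 0.294 for Notch2 (without replicate 1, 2, 3 or 4). Of them, Itga4, Pdgfrb and Ackr3 passed without the block, where the adjusted p of the rest lay between 0.0924 for Ctnnd1 and 0.911 for Notch2.

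Of the called genes with both group means above the limit of 5.98, Atf3 had the largest measured fall. It encodes a stress-induced transcription factor of the bZIP class. Its levels were 9.92, 10.07, 11.64 and 11.39 with the empty vector and 8.17, 9.49, 8.76 and 9.02 with FoxD3-VP16. The controls numbered 3 and 4 were above those numbered 1 and 2, and all 4 were above every FoxD3-VP16 array. The change was -1.90 (SE 0.26, adjusted p = 0.00102). H1f2, a linker histone, was at 11.97, 10.44, 11.93 and 11.73 and at 11.12, 9.64, 9.69 and 9.49. It fell in every pair, by 1.53 (SE 0.23, adjusted p = 0.00151), but the control numbered 2 was below the FoxD3-VP16 array numbered 1. Nes encodes nestin, an intermediate filament protein of progenitor cells, and was at 8.73, 8.83, 7.99 and 8.55 and at 6.08, 8.26, 5.69 and 8.33. Most of its fall of 1.44 (adjusted p = 0.0309) came from numbers 1 and 3, and the pairs numbered 2 and 4 fell by 0.57 and 0.22. Another probe set of Nes, with a mean of 8.28 against 8.45, changed by only -0.39 (SE 0.22), so the size of its fall depends on the probe set. Nppb, the B-type natriuretic peptide, fell by 1.28 (adjusted p = 0.00112), also in every pair.

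Several of the largest falls ended near the background. Cyp26a1, which breaks down retinoic acid, was at 6.91, 6.56, 7.60 and 7.25 in controls and at 4.51, 4.29, 6.02 and 6.21 with FoxD3-VP16, a change of -1.82 (SE 0.39, adjusted p = 0.0113). Crhr1, a receptor for corticotropin-releasing hormone, fell by 1.35, Dok5, a docking adaptor of receptor kinases, by 1.50, Hic1, a repressor, by 1.45, Gem, a small GTPase, by 1.48, and Vwf, an endothelial clotting protein, by 1.24. The FoxD3-VP16 mean of each of these 6 genes was below the limit of 5.98, where the added 16 makes a change look smaller, so their sizes have no order among themselves. The limit applies to the mean over the 12 arrays, which was 6.03 for Crhr1 and 6.05 for Hic1. All 6 therefore passed it only through arrays of the other vectors. They were also picked by the size of their falls, which can make a size look larger, so calls and sizes are a description. Gem and Vwf were high only in the controls numbered 3 and 4, where Gem was at 9.05 and 8.48 against 5.90 and 5.84 in those numbered 1 and 2. The remaining large falls were of Klf10, described with its family, the RNAs Gm829 (-1.38), Map2k3os (-1.34) and Ftx (-1.31), and the zinc finger gene Zc3h6 (-1.23). With each replicate number left out in turn, the calls of Atf3, H1f2, Nppb, Gm829 and Map2k3os held, while for the others the highest adjusted p without 1 number lay between 0.0668 for Dok5 and 0.328 for Nes (without replicate 1, 2, 3 or 4). Without the block Gm829 kept the call and the adjusted p of the others lay between 0.115 for Atf3 and 0.596 for Vwf.

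Immediate early genes are switched on within minutes by serum and stress. Of 21 tested AP-1 and immediate early factors 0 were called higher and 8 lower in limma, with a median change of -0.26; at an unadjusted p under 0.05 it was 2 and 9. Jun, a subunit of AP-1, was at 10.68, 10.73, 12.25 and 12.17 with the empty vector and at 10.45, 10.70, 10.27 and 10.36 with FoxD3-VP16. Its pairs numbered 1 and 2 were nearly level, and the fall of 1.01 (SE 0.26, adjusted p = 0.0256) rested on the controls numbered 3 and 4. Klf10 showed the same arrangement, at 9.31, 8.79, 10.78 and 10.81 and at 8.84, 8.38, 8.33 and 8.44, a change of -1.42 (SE 0.30, adjusted p = 0.0102). The nuclear receptors Nr4a1 and Nr4a3 fell by 0.59 and 0.86, Ier2 by 0.73, Mafg by 0.48 and Klf6 by 1.12. Ier2 and Nr4a1 were lower in all 4 pairs. Fos and Egr1, the best known members, did not pass, with changes of -0.13 (adjusted p = 0.784) and -0.17 (adjusted p = 0.826). Egr1 was positive when replicate 3 or 4 was left out, and Fos passed without replicate 2 at -0.60 (adjusted p = 0.0389). Members called lower numbered 3 without replicate 3 and 2 without replicate 4, and 0 without the block. The calls of Atf3 and Ier2 held with any 1 number left out, while for the others the highest adjusted p without 1 number lay between 0.0695 for Klf6 and 0.272 for Mafg (without replicate 2, 3 or 4). In the fit without the block the adjusted p lay between 0.0804 for Ier2 and 0.565 for Nr4a3, so none passed.

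Other families share members with this list or damp the same signals. Among 14 tested Kruppel-like factors Klf10, Klf6 and Klf9 (-0.40) were lower, and Klf12 (1.30) and Klf7 (0.75) higher. Other probe sets of Klf7 above the limit changed by 0.20 to 0.56. Of 17 phosphatases of the dual specificity family and Sprouty genes, which damp MAP kinase signalling, Dusp8 (-1.06) and Dusp4 (-0.45) were lower and Dusp14 higher. Among 23 Dock family and Rnd GTPase genes Rnd3 (-0.85) and Rhob (-0.45) were lower, while Dock10 and Cdc42 (0.32) were higher. Dusp8 was at 9.91, 8.23, 9.31 and 9.60 and at 9.26, 8.16, 7.41 and 7.96, with its largest falls in the pairs numbered 3 and 4. Leaving out each number in turn kept the calls of Dusp14 and Dock10, while for the others the adjusted p without 1 number reached values between 0.0511 for Klf7 and 0.264 for Klf9 (without replicate 3 or 4). Of them, Dusp14 and Dock10 passed without the block, where the adjusted p of the rest lay between 0.0813 for Klf7 and 0.686 for Cdc42.

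The integrated stress response is the route by which cells short of amino acids or with misfolded protein make the factors Atf4 and Ddit3. Of 28 tested members of the unfolded protein and integrated stress response list 0 were called higher and 6 lower in limma, with a median change of -0.10; at an unadjusted p under 0.05 it was 3 and 11. Ddit3 was at 10.54, 12.98, 11.68 and 11.72 with the empty vector and at 10.32, 12.08, 9.94 and 10.19 with FoxD3-VP16. Replicate numbers differed by more than the vectors did, and within numbers every FoxD3-VP16 array was lower, with a change of -1.10 (SE 0.18, adjusted p = 0.00265). Chac1, which degrades glutathione, was at 11.31, 12.38, 10.29 and 10.34 and at 10.18, 11.78, 9.33 and 9.59. It too fell in each pair, by 0.86 (SE 0.11, adjusted p = 5.93e-04). Trib3 fell by 0.78, Herpud1 by 0.75 and Atf4 by 0.57, and Atf3 is on both lists. The chaperone gene Hspa5, the usual marker of the unfolded protein response, did not pass (0.06, adjusted p = 0.687, and -0.0088 without replicate 4). Leaving out replicate 3 or 4 left 5 members called lower in each case, and the fit without the block called none. With each replicate number left out in turn, the calls of Atf3, Ddit3, Chac1 and Herpud1 held, while for the others the highest adjusted p without 1 number lay between 0.0517 for Atf4 and 0.0707 for Trib3 (without replicate 3 or 4). Without the block none of them passed, with an adjusted p between 0.115 for Atf3 and 0.844 for Trib3.

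Of 22 tested amino acid transporters 0 were called higher and 4 lower in limma, with a median change of -0.07, and 3 and 6 had an unadjusted p under 0.05. The cationic transporter Slc7a1 was at 13.50, 13.68, 13.13 and 13.11 in controls and at 12.82, 13.18, 12.35 and 12.54 with FoxD3-VP16, lower in each pair and by 0.63 in all (SE 0.07, adjusted p = 1.79e-04). The glutamine carrier Slc38a1 fell by 0.45, and Slc7a5 and Slc3a2, which form the large neutral amino acid exchanger, by 0.36 and 0.33. The count lower was 1 without replicate 3, 1 without replicate 4 and 0 without the block. The call of Slc7a1 held with any 1 number left out, while for the others the highest adjusted p without 1 number lay between 0.0694 for Slc7a5 and 0.148 for Slc3a2 (without replicate 1, 2, 3 or 4). In the fit without the block the adjusted p lay between 0.201 for Slc38a1 and 0.772 for Slc3a2, so none passed.

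Of 18 tested regulators of the melanocyte lineage 2 were called higher and 7 lower, with a median change of -0.23. Sox10, the factor that keeps the neural crest, glial and melanocyte programmes active, was at 12.70, 12.74, 12.59 and 12.64 in controls and at 12.10, 12.08, 11.85 and 11.76 with FoxD3-VP16. The 2 sets of 4 arrays lay apart with little spread, and the change was -0.72 (SE 0.086, adjusted p = 3.35e-04), or 1.64-fold lower. Mitf, the master regulator of pigment cells, was at 13.20, 13.15, 13.64 and 13.62 and at 12.96, 12.96, 13.06 and 12.92. Its groups lay apart too, but by less, with a change of -0.43 (SE 0.11, adjusted p = 0.0282). Pax3, which acts on Mitf together with Sox10, was lower in all 4 pairs by 0.21 and did not pass (SE 0.11, adjusted p = 0.254). Its result depends on the probe set. Another probe set of Pax3, with a mean of 11.37 against 11.60, changed by -0.54 (SE 0.11), and a dimmer one, at 10.38, by -0.16 (SE 0.18). The neuregulin receptor Erbb3 fell by 0.62 (adjusted p = 0.0131), the melanocortin receptor Mc1r by 0.60, the survival factor Bcl2 by 0.46, the factor Tfe3, a relative of Mitf, by 0.45 and the receptor Met by 0.24. Lef1 and Usf1 (0.78) were higher. Another probe set of Usf1, with a mean of 7.43 against 8.17, changed by -0.14 (SE 0.44). Other probe sets of Bcl2 above the limit changed by -0.53 to -0.04. Ednrb lay near the limit of tested genes, 5.98, with group means up to 6.31, and its change of 0.08 did not pass (adjusted p = 0.908). Ngfr, with group means from 5.20, was below that limit with the empty vector and with FoxD3-VP16. Its mean over all arrays was 6.25, so it was tested only through the FoxD3 arrays. The change of Ngfr, -0.07 (adjusted p = 0.934), therefore compares values below the limit and does not show that Ngfr was unchanged. Kit lay below that limit and was not tested. The number lower was 2 without replicate 3 and 1 without replicate 4, and Sox10 alone was called without the block. Leaving out each number in turn kept the call of Sox10, while for the others the adjusted p without 1 number reached values between 0.0629 for Mc1r and 0.19 for Mitf (without replicate 1, 2, 3 or 4). Of them, Sox10 passed without the block, where the adjusted p of the rest lay between 0.135 for Erbb3 and 0.714 for Met.

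Called changes of pigment genes lay between -0.60 and 0.60. Of 28 tested pigment and melanosome genes 2 were called higher and 7 lower, with a median change of -0.13. Tyrp1, an enzyme of melanin synthesis, was at 15.39, 15.29, 15.39 and 15.36 in controls and at 15.21, 15.18, 14.99 and 15.04 with FoxD3-VP16, a change of -0.25 (SE 0.051, adjusted p = 0.0092). Tyr, the enzyme of the first step, differed by 0.11 (adjusted p = 0.589), Dct by -0.12 (adjusted p = 0.094) and the fibril protein gene Pmel by -0.17 (adjusted p = 0.0659), none of which passed. Dct passed with the values as deposited (-0.23, adjusted p = 0.0198) and with cyclic loess (-0.19, adjusted p = 0.0228). Pmel passed in both of these settings and with the lowest 60% left out, at an adjusted p of 0.0351 to 0.0474. Mlana rose by 0.17 (adjusted p = 0.0444). The copper transporter Atp7a, which loads tyrosinase, rose by 0.60 (adjusted p = 0.00168). Genes of melanosome and lysosome traffic made up most of the falls, namely Lyst (-0.60), Hps3 (-0.48), Mlph (-0.45), Hps4 (-0.43), Rab38 (-0.40) and Ap3d1 (-0.27). The counts were 1 higher and 2 lower without replicate 3 and also without replicate 4, and 0 without the block. With each replicate number left out in turn, the calls of Atp7a, Lyst and Rab38 held, while for the others the highest adjusted p without 1 number lay between 0.0578 for Hps3 and 0.276 for Hps4 (without replicate 1, 2, 3 or 4). Without the block none of them passed, with an adjusted p between 0.0875 for Rab38 and 0.782 for Mlana.

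Among 15 tested neural crest specifiers Id3 was higher (1.10) and Myc (-0.77), Sox10 and Ets1 (-0.59) were lower. Sox9, which acts earlier in the crest, had a change of 0.01 (adjusted p = 0.989), with a sign that turned under several settings. Of 11 glial and Schwann cell genes S100b was higher (0.75) and Erbb3 lower. The call of Sox10 held with any 1 number left out, while for the others the highest adjusted p without 1 number lay between 0.0729 for Ets1 and 0.174 for Id3 (without replicate 3 or 4). In the fit without the block Sox10 passed, and the others had an adjusted p between 0.135 for Erbb3 and 0.531 for Id3.

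Synaptotagmins are calcium sensors of vesicle release. Of 11 tested synaptotagmins and partners 0 were called higher and 4 lower in limma, with a median change of -0.20, and 0 and 4 had an unadjusted p under 0.05. Syt4 was at 13.98, 13.77, 13.84 and 13.68 in controls and at 13.01, 12.75, 12.47 and 12.36 with FoxD3-VP16, a change of -1.17 (SE 0.11, adjusted p = 6.86e-05) with the groups well apart. Syt9 fell by 0.90 (SE 0.15, adjusted p = 0.00347), Syt11 by 0.50 and Sytl2, which acts in melanosome and granule transport, by 0.50. The number called lower was 2 without replicate 3, without replicate 4 and without the block. Lysosomal genes went both ways, with 5 of 35 tested members higher and 4 lower and a median of 0.02. Gpr137b, a lysosomal membrane protein that shares the lowest adjusted p of all tested genes with Cavin2, was at 13.45, 13.84, 13.28 and 13.37 in controls and at 12.15, 12.87, 12.32 and 12.18 with FoxD3-VP16. It fell by 1.11 with an SE of 0.077 (adjusted p = 1.91e-05). The cathepsins Ctsh (0.66) and Ctsl (0.37), Lamp2 (0.41) and the proton pump subunit Atp6v1e1 (0.45) rose, while the pump subunits Atp6v1h (-0.40) and Atp6v1c1 (-0.25) fell. Leaving out each number in turn kept the calls of Syt4, Syt9, Gpr137b and Lamp2, while for the others the adjusted p without 1 number reached values between 0.0664 for Ctsl and 0.298 for Syt11 (without replicate 1, 2, 3 or 4). Of them, Syt4, Syt9 and Gpr137b passed without the block, where the adjusted p of the rest lay between 0.241 for Sytl2 and 0.932 for Atp6v1c1.

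Ccnd1 encodes cyclin D1, which drives cells out of G1. It was at 11.60, 10.58, 11.56 and 11.43 in controls and at 10.65, 9.72, 10.74 and 10.77 with FoxD3-VP16. Replicate 2 was low in both groups, so the groups overlapped, but each pair fell by a like amount and the change was -0.82 (SE 0.10, adjusted p = 4.16e-04). Its partner kinase Cdk6 rose by 0.77 (adjusted p = 0.00655), and the inhibitor gene Cdkn2c by 0.62. Another probe set of Cdk6, with a mean of 8.62 against 9.13, changed by 0.23 (SE 0.20), so the size of its rise depends on the probe set. Cdk2 fell by 0.54, and the inhibitor gene Cdkn1a by 0.64 (adjusted p = 0.0399), in 3 of 4 pairs. In all, 3 of 21 tested G1 cyclin and inhibitor genes were higher and 3 lower. None of 36 tested mitosis genes was called in limma, and 2 of them, both lower, had an unadjusted p under 0.05. Of 37 replication genes 2 were called, Cdt1 (-0.39) and Mcm10 (-0.39). Of 23 p53 target genes Sesn1 and the repair gene Xpc (0.83) were higher and Cdkn1a was lower. With each replicate number left out in turn, the calls of Ccnd1, Sesn1, Cdk2 and Xpc held, while for the others the highest adjusted p without 1 number lay between 0.0575 for Cdk6 and 0.262 for Cdkn1a (without replicate 1, 2, 3 or 4). Without the block Sesn1 kept the call and the adjusted p of the others lay between 0.0873 for Xpc and 0.711 for Mcm10.

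None of 33 ribosomal protein genes and none of 15 housekeeping genes was called in limma with the block, where 3 and 1 had an unadjusted p under 0.05. Cholesterol synthesis had 2 of 23 higher, Fdft1 (0.48) and Scap (0.45), a median of 0.22 and 10 higher at an unadjusted p under 0.05. The respiratory chain had 3 of 39 higher, Ndufb10 (0.44), Ndufa5 (0.37) and Uqcrb (0.19), a median of 0.10 and 12 higher at an unadjusted p under 0.05. Both counts moved widely: array quality weights called 14 and 13 higher, and leaving out replicate 1 called 5 and 6, replicate 2 called 4 and 2, and replicate 3 or 4 called 0 and 0. Hypoxia and glycolysis genes had 2 of 33 higher, Egln3 (0.97) and Mxi1 (0.77), and 2 lower, Vegfa and Ankrd37 (-0.79). Interferon response genes, which transfected plasmid can induce, had 1 of 30 higher, Irf1 (0.55), and 1 lower, Cxcl10, while 8 were lower without replicate 2 and 7 with array quality weights. Of 21 cytosolic heat shock genes Dnajb4 rose by 1.0 (adjusted p = 0.00112) and Chordc1 fell by 0.30. The calls of Mxi1 and Dnajb4 held with any 1 number left out, while for the others the highest adjusted p without 1 number lay between 0.104 for Ndufb10 and 0.323 for Egln3 (without replicate 1, 2, 3 or 4). In the fit without the block the adjusted p lay between 0.0698 for Dnajb4 and 0.708 for Ndufb10, so none passed.

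Corepressors of the Groucho family, which FoxD3 and other repressors recruit, were listed with further partners of FoxD3. Of 13 tested members 3 were called higher and 0 lower in limma, with a median change of 0.24, and 5 and 0 had an unadjusted p under 0.05. They were Tle4, at 10.12, 9.27, 10.29 and 10.30 in controls and 11.18, 10.01, 10.99 and 10.46 with FoxD3-VP16 and a change of 0.66 (SE 0.16, adjusted p = 0.0223), the related Tle6 at 1.16 (adjusted p = 0.0476) and the histone demethylase gene Kdm1a at 0.51 (SE 0.079, adjusted p = 0.00189). Of 18 tested forkhead genes 4 were higher and 2 lower. Foxp2 was at 8.29, 8.08, 8.53 and 8.54 and at 9.65, 8.95, 9.37 and 9.42, with the groups apart and a change of 0.99 (SE 0.16, adjusted p = 0.00272). Foxa1, an opener of closed chromatin, rose by 0.92 (adjusted p = 0.0017), Foxn3 by 0.60 and Foxp1 by 0.46, while Foxn2 fell by 0.73 and Foxj3 by 0.38. Without replicate 3 and without replicate 4 the number of forkhead genes higher was 2. Leaving out each number in turn kept the calls of Kdm1a, Foxp2 and Foxa1, while for the others the adjusted p without 1 number reached values between 0.0602 for Foxn2 and 0.211 for Foxj3 (without replicate 2, 3 or 4). Of them, Foxp2 passed without the block, where the adjusted p of the rest lay between 0.126 for Foxn2 and 0.724 for Kdm1a.

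**Figure D3:**
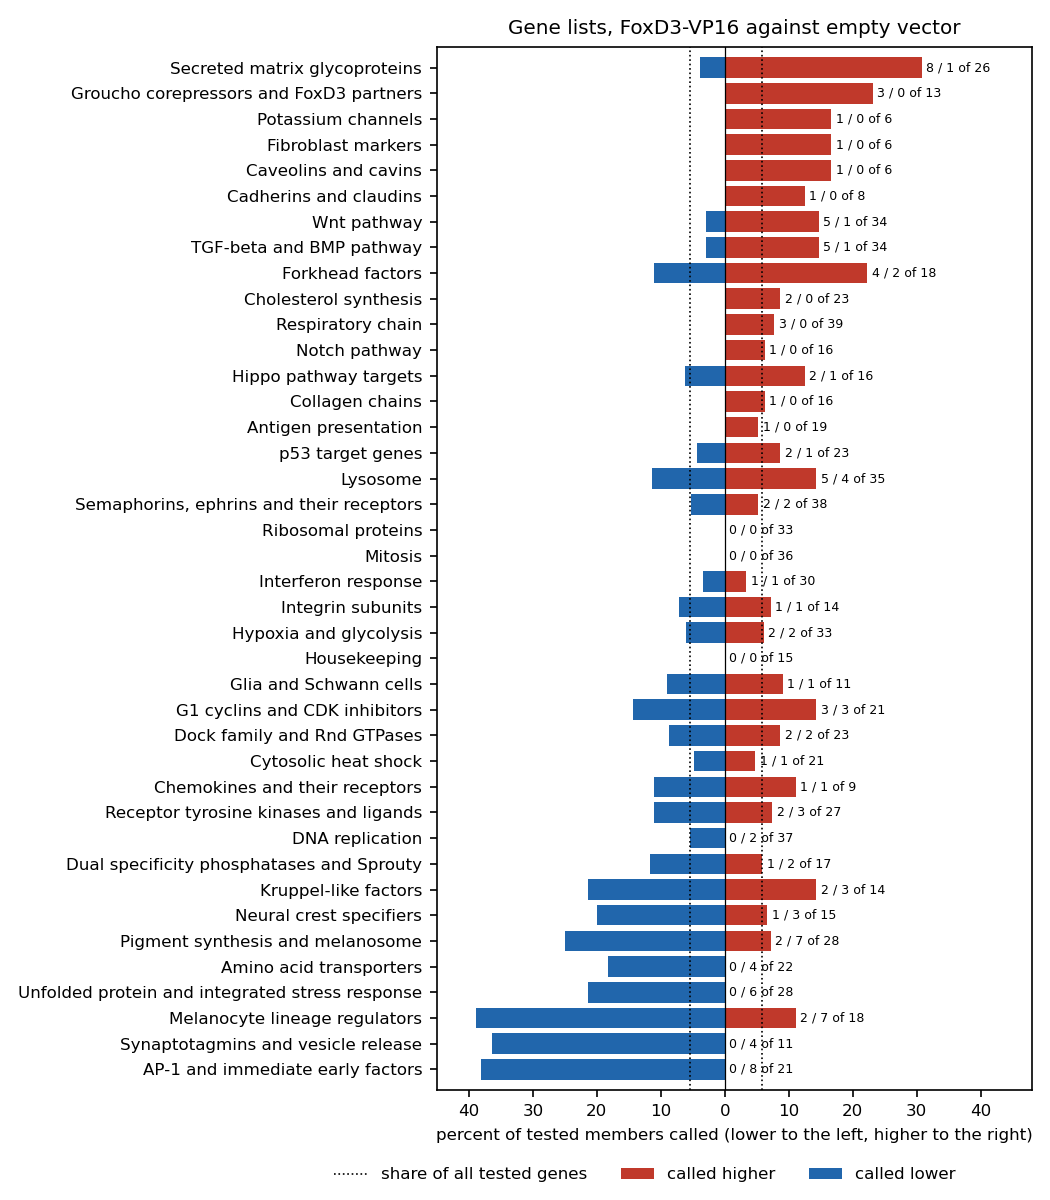
Percent of the tested members that were called higher (red, to the right) and lower (blue, to the left), for those of the 43 lists of pathway members and markers with at least 5 tested members, with the counts as higher / lower of tested; dotted lines mark the shares over all tested genes, 5.73% and 5.41%. Among the lists plotted, secreted matrix glycoproteins have the longest bar to the right, with 8 of 26, and melanocyte lineage regulators, with 7 of 18, the longest to the left.

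The response to FoxD3-VP16 was set beside that to FoxD3, which keeps its own C-terminal domain. The 2 responses are measured against the same 4 control arrays and are therefore given side by side, with the direct contrast of FoxD3-VP16 with FoxD3, in which 3498 of the 10916 tested genes were called (32%). Cavin2 was at 10.11, 10.51, 9.98 and 9.98 in the FoxD3 arrays, below the controls, so it changed by -1.04 with FoxD3 and by 1.93 with FoxD3-VP16. Sgk1 was at 9.97, 7.74, 10.80 and 10.76 in controls, at 12.09, 10.86, 12.26 and 12.32 with FoxD3-VP16 and at 9.14, 7.94, 9.76 and 9.62 with FoxD3. It rose in every pair with FoxD3-VP16, by 2.06, and fell by 0.71 with FoxD3 (adjusted p = 0.0318). The secreted copper oxidase gene Cp changed by 1.52 with FoxD3-VP16 and by -1.18 with FoxD3, and the membrane protein gene Thsd7a by 1.31 and -1.46. Another probe set of Thsd7a, with a mean of 7.55 against 8.12, changed by 0.42 (SE 0.36) with FoxD3-VP16. Dock10 and Cd1d1 rose with FoxD3-VP16, and their FoxD3 values of -0.44 and -0.71 did not pass (adjusted p = 0.337 and 0.0747). These 6 genes, and those of the next 3 sets, were picked by the size of the direct contrast among the called genes, so that contrast is a description of them.

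Another set fell with FoxD3-VP16 and was higher with FoxD3. Ccnd1 was at 13.26, 12.77, 13.21 and 13.36 in the FoxD3 arrays, above every control, a change of 1.86 against -0.82 with FoxD3-VP16. Atf3 was at 10.58, 11.68, 12.34 and 12.37 with FoxD3, a change of 0.99 against -1.90. Nppb changed by 1.43 with FoxD3 and by -1.28 with FoxD3-VP16. Dok7, an adaptor of the muscle kinase MuSK, changed by 2.63 and -0.68, and Csrnp1, a nuclear protein, by 1.59 and -1.37. Nes, in the probe set taken for it, changed by 1.20 and -1.44. Sox10, which was not picked by this contrast, went the same way. It was at 13.27, 13.37, 13.44 and 13.50 with FoxD3 against 12.67 on average in controls, a change of 0.73, and the contrast of FoxD3-VP16 with FoxD3 was -1.45 (SE 0.086, adjusted p = 2.05e-07). Erbb3 had 0.97 with FoxD3 and -0.62 with FoxD3-VP16, and a contrast of -1.58 (adjusted p = 3.62e-06).

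In the other sets FoxD3-VP16 moved genes the same way as FoxD3 and by less. Tgm2 rose by 1.08 with FoxD3-VP16 and by 3.88 with FoxD3, and Klhl30, Bcl9l, Zfpm1, Zmiz1 and Nfix by 0.38 to 0.71 and by 1.22 to 1.67. Zfpm1 was -0.048 when the probe sets of a gene were averaged, so its direction depends on the probe set. Mitf fell by 0.43 and by 1.09, and its contrast was 0.66 (adjusted p = 5.92e-04). Otud1, a deubiquitinase gene, Bcl2, Klf6, Cobll1 and Ivns1abp changed by -1.12 to -0.25 with FoxD3-VP16 and by -1.72 to -0.70 with FoxD3. Tyr fell by 0.78 with FoxD3 (adjusted p = 4.06e-04) but differed by 0.11 with FoxD3-VP16 (contrast 0.89, adjusted p = 8.30e-05). In the probe set taken for it, Pax3 had -1.05 and -0.21 (contrast 0.84, adjusted p = 9.68e-05).

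For some of the strongest responses no difference between the proteins was found. Scube3 rose by 4.0 with FoxD3 and by 3.40 with FoxD3-VP16, a contrast of -0.60 (SE 0.52, adjusted p = 0.41). Pdgfrb rose by 1.84 and by 1.60 (contrast -0.23, SE 0.24, adjusted p = 0.492). Syt4 fell by 1.19 and by 1.17 (contrast 0.02, SE 0.11, adjusted p = 0.905), and Syt9 by 1.10 and 0.90 (contrast 0.20, adjusted p = 0.356). A contrast that misses the threshold does not show equal responses, and its SE shows how precisely it was measured. Ccn2 and Postn, by comparison, had 0.31 and -0.22 with FoxD3, neither of which passed (adjusted p = 0.295 and 0.505), and their contrasts were 2.23 (adjusted p = 5.16e-06) and 2.42 (adjusted p = 4.01e-06).

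**Figure D4:**
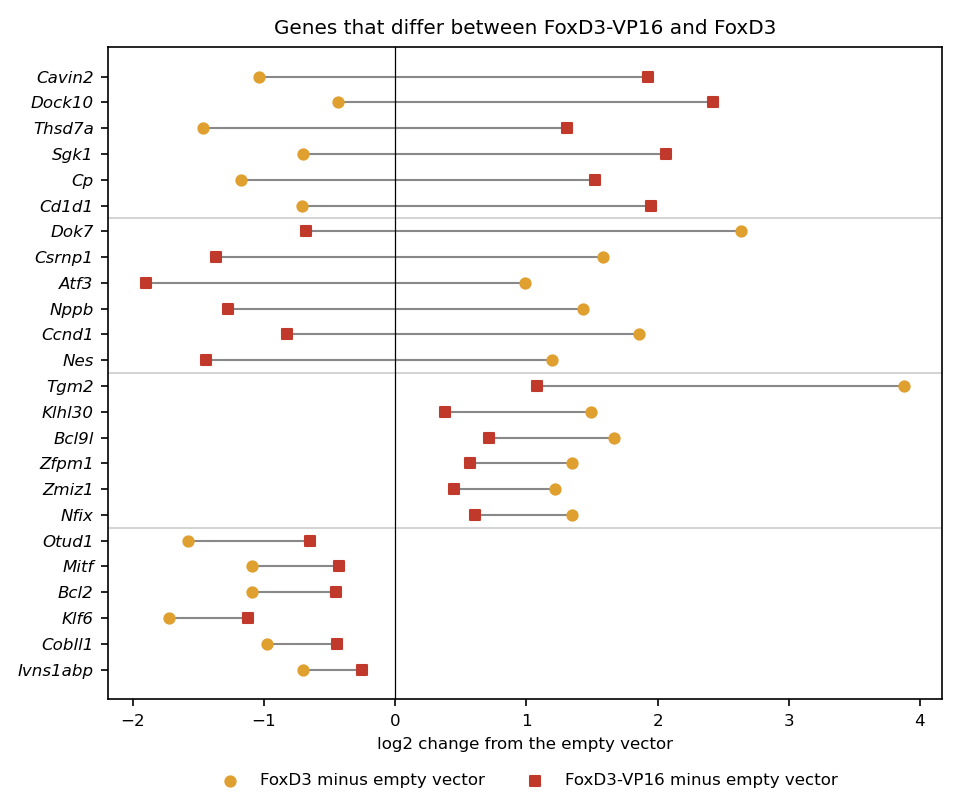
Log2 change from the empty vector (x axis) with FoxD3 (circles) and with FoxD3-VP16 (squares) for 24 genes that differ between the proteins, in 4 sets parted by grey lines: higher, then lower, with FoxD3-VP16 than with the empty vector and FoxD3, and rose or fell by less than with FoxD3. The widest gap among the first 12 genes is that of Dok7, at -0.68 against 2.63.

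Of the 129 called genes named by rule, 23 were called under each of the 16 alternatives in which they were tested, and 49 were called with each number left out in turn. The 23 hold Scube3, Vasn, Ccn2, Postn, Cavin2, Dock10, Ackr3, Dusp14, Cables1, Cd1d1, Fstl1, Lamb1, Pdgfrb, Prickle2, Tgfb2, Tgfb3, Sesn1 and Foxp2 among the rises and Sox10, Syt4, Syt9, Gpr137b and Gm829 among the falls. Another probe set of the same gene with a mean above the limit was present for 75 of the 140 genes named by rule, and 126 of those 134 probe sets had the same sign of change.

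**Figure D5:**
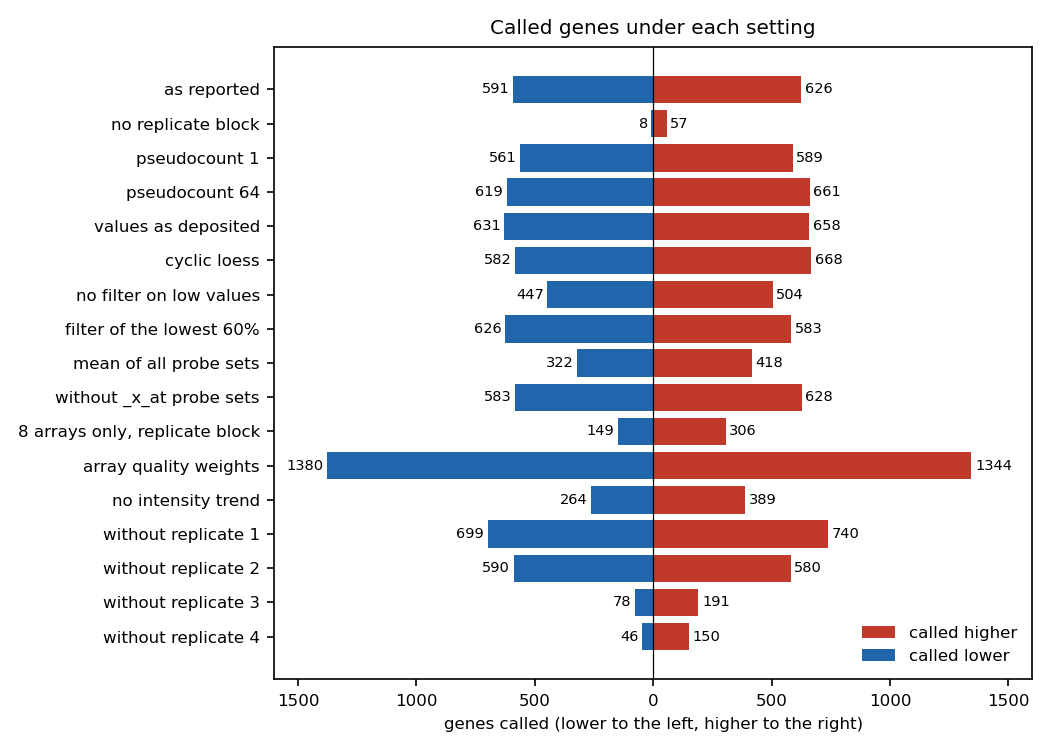
Number of genes called higher (red, to the right) and lower (blue, to the left) with all 4 replicate numbers and the replicate block (top) and under each of 16 alternatives. Falls shrink most, from 591 to 8 without the block, to 78 without replicate 3 and to 46 without replicate 4, while array quality weights raise the counts to 1344 and 1380.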

How the data were processed

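RNA of EGFP-positive B16-F10 cells was measured on 12 Affymetrix 1-colour arrays, 4 for each vector. The authors deposited linear intensities per probe set, made with MAS5 per the submitters' processing notes with its version not given in the sources used here, and a label also names dChip. On every array the mean intensity without the lowest and highest 2% of values was 500.003 to 500.004, so the values were already scaled to a common level, and no files before that scaling were used. A library depth does not apply, and the number of arrays limits the precision. No pair of arrays was identical.

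Intensities were raised by 16, taken to log2 and quantile normalized over the 12 arrays. Of 45101 probe sets 64 controls were left out, and 34945 had 1 gene symbol in GEO's platform annotation, 932 several and 9160 none listed. The probe set with the highest mean stood for each of 18193 genes, and the lowest 40% (below 5.98) were left out, which left 10916. The limit applies to the mean over the 12 arrays, so a gene can pass it through a single group in which it is high. limma 3.58.1 in R 4.3.3 (lmFit, eBayes with an intensity trend) was fitted to the 12 arrays with vector and replicate number (6 residual and 7.30 prior degrees of freedom), and Benjamini-Hochberg adjusted p-values under 0.05 were called. Python 3.11.15 with matplotlib 3.10.9 drew the figures. The scripts were tested on simulated data.

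The pairing comes from the numbers in the titles; the labels do not say what a number shares. Deviations from the group means correlated at 0.37 to 0.64 in the 4 pairs compared here. Arrays numbered 3 and 4 also correlated across groups, at 0.37 to 0.54. Between the 2 groups compared here, same-number arrays correlated at 0.37 (number 3) and 0.41 (number 4). Number 3 with number 4 correlated there at 0.37 and 0.42. Inside the groups these numbers correlated at 0.59 (empty vector) and 0.50 (FoxD3-VP16). Numbers 3 and 4 are therefore not clearly separate pairs, and a fit without 1 of them still holds the other. The fit without the block (9 residual and 3.98 prior degrees of freedom) is an alternative.

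The comparison, gene lists and alternatives were chosen with earlier results of these data known, the counts of both fits included. Genes were named by rule: the 15 largest called rises and falls with all 4 pairs in one direction, up to 4 called members of each of 43 lists, up to 6 for each pattern next to FoxD3, and 20 given genes. Other genes were named after their values were seen. The lists hold 1201 genes, of which 831 were tested. Promoter sequences of 27025 genes are from RefSeq (GRCm38.p6). Alternatives were other pseudocounts, normalizations, filters, probe set rules, array weights, no trend, the 8 arrays alone and each number left out.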

Additional observations from a re-analysis of the deposited data

Results flagged for a closer look

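Among the named genes and the 2 groups of 4 arrays, a single array lay far from the other 3 in 22 of 280 sets of 4 values (7.86%), by Dixon's test at the 95% level, where chance gives about 1 in 20. Of the 22, 15 were arrays numbered 1, and 10 were empty-vector and 12 FoxD3-VP16 arrays. All values are log2(intensity + 16).

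On empty-vector arrays numbered 1, Ackr3 was high at 7.35 (others 5.56 to 5.80) and Syt9 was high at 10.77 (others 10.19 to 10.27). On that array Fgf1 was low at 5.85 (others 7.17 to 7.40), Kdm1a at 11.02 (others 12.16 to 12.19), Ndufb10 at 10.63 (others 11.38 to 11.52) and Smad6 at 5.49 (others 6.41 to 6.43). On the empty-vector array numbered 2, Atp6v1e1 was high at 13.68 (others 13.18 to 13.20), while Ccnd1 was low at 10.58 (others 11.43 to 11.60), H1f2 at 10.44 (others 11.73 to 11.97) and Otud1 at 9.93 (others 10.67 to 10.77).

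On the FoxD3-VP16 array numbered 1, Ednrb was high at 7.84 (others 5.64 to 5.89), Fdft1 at 12.35 (others 11.96 to 11.99) and H1f2 at 11.12 (others 9.49 to 9.69). Low on it were Csrnp1 at 4.86 (others 7.42 to 7.50), Dct at 15.16 (others 15.45 to 15.49), Nrp2 at 11.16 (others 11.69 to 11.80), Postn at 9.90 (others 10.42 to 10.50), Smad6 at 5.76 (others 7.90 to 7.98) and Sox9 at 6.53 (others 7.31 to 7.41). On the FoxD3-VP16 array numbered 2, Ccnd1 was low at 9.72 (others 10.65 to 10.77) and Sgk1 at 10.86 (others 12.09 to 12.32), and Trib3 was high at 11.32 (others 8.56 to 8.996). Smad6 was low on both arrays numbered 1, and Ccnd1 on both numbered 2.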

How the results depend on the processing

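Against 626 genes called higher and 591 lower, the fit without the replicate block called 57 and 8, the 8 compared arrays alone (with the block) 306 and 149, array quality weights 1344 and 1380, and no intensity trend 389 and 264. Averaging all probe sets of a gene called 418 and 322. With 1 replicate number left out the counts ran from 150 to 740 higher and from 46 to 699 lower, the low ends without replicate 4. The other 7 settings (pseudocounts of 1 and 64, values as deposited, cyclic loess, no filter, a filter of the lowest 60% and no _x_at probe sets) gave 504 to 668 higher and 447 to 631 lower. The cause of these shifts was not tested, and fewer arrays were fitted in the 8-array and left-out settings. Of 129 called genes named by rule, 104 missed the threshold without the block, 71 without replicate 3, 76 without replicate 4, 49 with the 8 arrays alone (of 126 tested) and 45 without the trend; the other settings lost 0 to 41. Zfpm1 alone among these 129 changed sign, to -0.048 with averaged probe sets. Signs turned for 7 genes that had not passed. With 1 number left out the change of Sox9 ran from -0.20 to 0.19 (negative without replicate 1 and 4), of Tyr from -0.012 to 0.23, of Egr1 from -0.80 to 0.23, of Fos from -0.60 to 0.16, of Hspa5 from -0.0088 to 0.12 and of Ngfr from -0.30 to 0.12. Sox9 was also -0.025 at a pseudocount of 64, -0.0087 with cyclic loess, -0.38 with averaged probe sets and -0.040 with weights, Tyr was -0.047 with averaged probe sets, Ngfr 0.17 with weights and Ednrb -0.021 with weights. Genes near the lower limit have changes that the added 16 makes smaller.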

Other observations

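The lists in this section were written after values had been seen, so their counts only describe, beside 5.73% higher and 5.41% lower and a median change of -0.02 over all tested genes. Counts at an unadjusted p under 0.05 stand beside 2926 of the 10916 tested genes, both directions together. Of 64 tested genes of nucleolar ribosome biogenesis, whose products make and fold ribosomal RNA, 27 were called lower and 1 higher, with a median change of -0.39. Naf1, an assembly factor of H/ACA ribonucleoproteins, was at 11.41, 11.02, 11.77 and 11.67 in controls and at 10.78, 10.66, 10.64 and 10.43 with FoxD3-VP16. Its groups lay apart, with a change of -0.84 (SE 0.13, adjusted p = 0.00177), and it was also called without the block (adjusted p = 0.0396). Tsr1, which matures the small subunit, fell by 0.73 (adjusted p = 0.00373), the nucleolar GTPase gene Gnl3 by 0.67, Nop58, a core protein of box C/D particles, by 0.61 and nucleophosmin (Npm1) by 0.24. Fibrillarin (Fbl) at -0.15 and nucleolin (Ncl) at -0.20 did not pass (adjusted p = 0.358 and 0.0909), though Ncl passed with the values as deposited and with array quality weights (adjusted p = 0.0476 and 0.0159), and Tsr3 rose by 0.68. Of 11 tested host genes of small nucleolar RNAs 4 were called lower in limma and 0 higher, with 7 and 0 at an unadjusted p under 0.05, and the median was -0.26. They were Snhg16 (-1.11), Snhg17 (-0.86), Snhg12 (-0.70) and Snhg1 (-0.63). All 4 fell most in the pairs numbered 3 and 4, where Snhg16 was at -2.03 and -1.80, against -0.41 and -0.20 in pairs 1 and 2. In pair 1 Snhg17 and Snhg12 were higher, by 0.21 and 0.04. Gnl3 (0.05 in pair 1) and Nop58 also fell most in pairs 3 and 4. The nucleolar count lower was 32, 23, 2 and 1 with number 1, 2, 3 or 4 left out and 1 without the block, and that of the host genes was 5, 3, 0 and 0, and 0.

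Of 50 tested genes of glutathione and carbonyl detoxification 16 were called higher and 1 lower, with a median change of 0.21. Adh1, an alcohol dehydrogenase, was at 7.67, 8.08, 7.99 and 8.33 in controls and at 9.53, 9.55, 9.57 and 9.68 with FoxD3-VP16. The groups lay apart, and the change was 1.56 (SE 0.17, adjusted p = 1.36e-04). Glutaredoxin (Glrx), which reduces mixed disulfides of glutathione, was at 7.90, 7.97, 8.0 and 8.10 and at 9.12, 9.24, 9.62 and 9.94, a change of 1.49 (SE 0.17, adjusted p = 3.12e-04). The transferase genes Mgst1, Gstm1 and Gstt1 rose by 1.85, 1.42 and 1.44. The aldehyde oxidase gene Aox1 rose by 1.22 and the carbonyl reductase gene Cbr2 by 1.47. The empty-vector means of Gstt1 (5.62) and Cbr2 (5.31) are below the limit of tested genes, so the sizes of their rises are understated. Gstm1 has close relatives whose RNA may bind the same probes. Heme oxygenase (Hmox1) fell by 0.53 (adjusted p = 0.018). The count higher was 16, 13, 5 and 5 with number 1, 2, 3 or 4 left out and 3 without the block.

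Of 36 tested genes described as targets of FOXO factors, the forkhead proteins that insulin signalling holds back, 11 were called higher and 2 lower, with a median change of 0.08. Pik3ip1, which restrains PI3-kinase, was at 8.69, 8.57, 7.75 and 8.18 in controls and at 9.44, 9.56, 9.45 and 9.75 with FoxD3-VP16, a change of 1.25 (SE 0.19, adjusted p = 0.00184) with the groups apart. Sesn3 rose by 1.24 beside Sesn1, the mitochondrial kinase gene Pink1 by 0.90, Cited2 by 0.85 and the death factor gene Bcl2l11 by 0.81. Txnip fell by 0.83 (adjusted p = 0.033), and Erbb3 was the other member that fell. The fall of Txnip rested on numbers 3 and 4, with pairs 1 to 4 at -0.085, -0.084, -1.60 and -1.54. Its adjusted p without the block was 0.473. The count higher was 11, 11, 8 and 8 with number 1, 2, 3 or 4 left out and 3 without the block. Outside all lists, Cyp39a1, which hydroxylates oxysterols, was at 9.97, 9.59, 9.33 and 9.30 and at 11.16, 10.99, 11.47 and 11.33, a change of 1.69 (SE 0.15, adjusted p = 6.85e-05), and Slc40a1, the iron exporter ferroportin, rose by 1.62 (adjusted p = 0.00121).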
